A study of Drosophila melanogaster with 2 samples.

Results

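The 71E late puff genes are a cluster of small ecdysone-induced genes on the left arm of chromosome 3 of Drosophila melanogaster. The genes Eig71Ea to Eig71Ek, without the glue gene Eig71Ee, were taken by matching the transcript name of each array probe to a gene symbol. All 10 were on the array, each by 1 probe printed in 1 spot, among 13188 genes in all. In the reference gene table they stand in alphabetical order along the chromosome, with Eig71Ee and 1 other gene, CG43084, between them.

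Before metamorphosis a pulse of the steroid hormone ecdysone binds its receptor and switches on early regulatory genes, among them br (Broad), Eip74EF and Eip75B, whose products then switch on late genes. The puffs at 71E are a classic example of such late genes: they swell on the giant chromosomes of the larval salivary gland around the time the puparium forms, and Broad and the Eip74EF protein act on them. They lie largely in divergently transcribed pairs and encode short secreted proteins rich in cysteine, resembling defence peptides. No separate role of the single members is known well enough to give here. Because they come on late, they serve as markers of how far a larva has advanced towards pupation.

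Whole female larvae of the last instar before pupation, titled day 6, were compared on 2 two-colour arrays. Ablated larvae carried rnGAL4, UASegr and tubGAL80[ts] in 1 copy (/+): the rotund driver turns on eiger, a tumour necrosis factor ligand that kills cells, in the wing pouch when GAL80 is inactive. Controls carried the TM6 balancer with the Tb[1] marker and a tubGAL80 transgene, so both groups held GAL80 and only the controls held the balancer and Tb[1]. Both groups spent 24 h at 30 °C; the series design text gives this as the temperature of cell death, while the treatment text names the temperatures the other way round. Ablated RNA was in Cy5 on replicate 1 and in Cy3 on replicate 2, and the control RNA was in the other dye. The labels do not say how many larvae made up an RNA sample or whether the replicates are independent cultures. The p-values therefore reflect the scatter of 2 arrays, which may be technical, pooled with that of all other tested genes. In whole larvae, fewer salivary gland cells and less RNA per cell cannot be told apart.

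The arrays themselves set limits on every value below. A probe was called above background when the median of its pixels exceeded the local background median by 2 SD of that background. Of 14593 gene probes, 37.9% in the ablated and 26.8% in the control channel met this on replicate 1, against 17.5% and 14.9% on replicate 2. Across the 5960 genes tested, the log2 ratios of ablated over control ran against each other on the dye-swapped arrays (Pearson's r = -0.53, Spearman's rho = -0.23), so the direction of a single gene is not settled by these arrays. Ratios follow the dyes in the labels, as do those in the authors' deposited table. Limma called 0 of the 5960 genes (0%) at a Benjamini-Hochberg adjusted p of 0.05, with 144 genes (2.42%) at an unadjusted p under 0.05.

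The first question is whether the late puff genes were expressed at a measurable level in either group. Signals were mostly close to background: 3 of the 10 genes, Eig71Ea, Eig71Ed and Eig71Ek, were above it in no channel of either array, and the other 7 were above it in 1 or 2 of their 4 channel values. Over all gene probes 43.5% were above background in some channel. In both groups on both arrays it was 0 of 10 late puff genes, against 8.45% of probes. In some channel of each array it was 2 of 10, Eig71Eb and Eig71Ef, against 15.4%. The numbers above background were 4 of 10 in ablated and 3 of 10 in control larvae on replicate 1, and 3 of 10 and 2 of 10 on replicate 2. In all, 12 of 40 channel values passed (30.0%, against 24.3% over all gene probes), 7 in the ablated and 5 in the control channel. A share this near the background is not a result about the cluster.

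**Figure D1:**
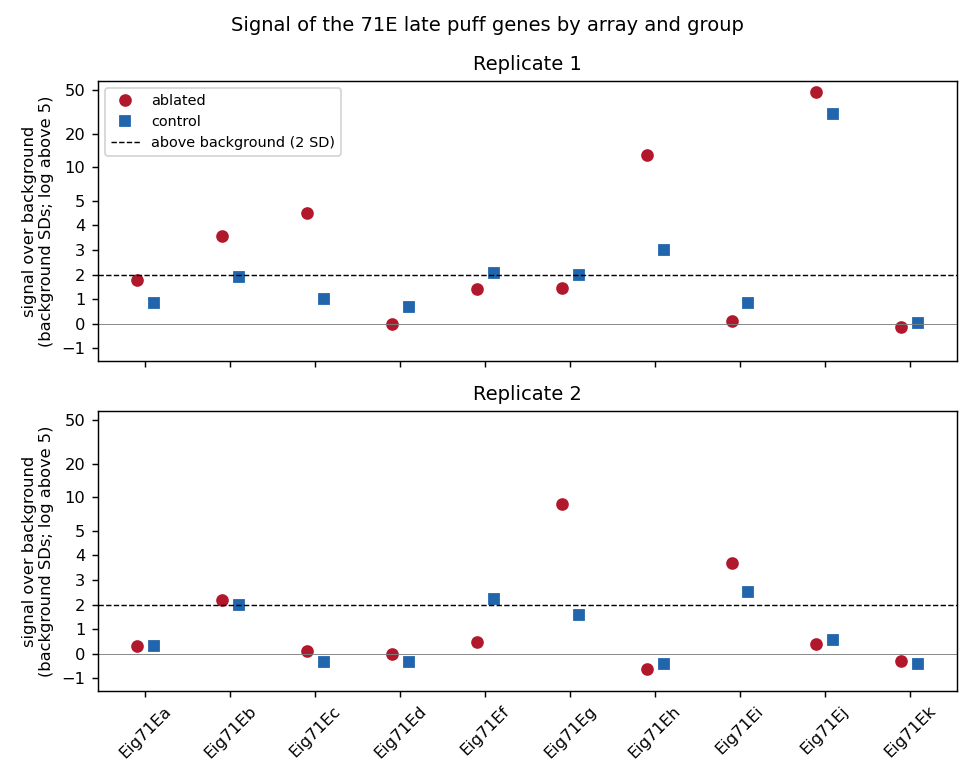
Signal over local background of the 10 late puff genes, in SDs of the background pixels, on replicate 1 (top) and replicate 2 (bottom); circles are ablated and squares control larvae, the dashed line marks 2 SD, and the axis is logarithmic above 5. Eig71Ej reaches 47.9 and Eig71Eh 12.9 on replicate 1 and Eig71Eg 8.68 on replicate 2; Eig71Eb, Eig71Ec, Eig71Ef and Eig71Ei also rise over the line in some channel, by less.

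Eig71Ej gave the strongest late puff signal, and on 1 array only. Its net signal, the pixel median minus the local background median, was 3541 in ablated and 2160 in control larvae on replicate 1, which is 47.9 and 30.4 background SDs. On replicate 2 the net signals were 144 and 205, or 0.41 and 0.56 background SDs, so neither group was above background there. After normalization the log2 ratio of ablated over control was 0.00518 on replicate 1 and -0.31 on replicate 2 (-0.15 ± 0.22, SD, n = 2). The brighter channel before normalization was Cy5 on both arrays, which held ablated RNA on replicate 1 and control RNA on replicate 2.

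Eig71Eh, which lies on the other side of Eig71Ei in the cluster, was also measured on replicate 1 only. Its net signals on replicate 1 were 453 in ablated and 220 in control larvae, at 12.9 and 3.01 background SDs. On replicate 2 both lay under the local background, at -200 and -146. The log2 ratios were 0.31 and -0.36 (-0.0247 ± 0.47), of which the second has no signal behind it. The authors' deposited table lists a log2 ratio of 0.447 for Eig71Eh on replicate 2, where both net signals were below 0.

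Eig71Ei showed the opposite pattern of detection, with signal on replicate 2 alone. There its net signals were 126 in ablated and 136 in control larvae, at 3.71 and 2.52 background SDs. On replicate 1 they were 4 and 43, both under 1 background SD. Its log2 ratios were -0.0684 and -0.11 (-0.0884 ± 0.0283). In the authors' deposited table the replicate 1 log2 ratio of Eig71Ei is -3.19, although neither group was above background there.

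These 3 genes give the 3 ratios of the cluster in which both groups were measured on the same array: 0.31 for Eig71Eh and 0.00518 for Eig71Ej on replicate 1, and -0.11 for Eig71Ei on replicate 2. The gap between the arrays for the median tested gene, 0.40, is a difference of 2 ratios and no yardstick for a single ratio. Over all gene probes, 25.5% were above background in both groups on replicate 1 and 12.7% on replicate 2, beside 2 of 10 and 1 of 10 late puff genes. For scale, 12 probes printed 17 times on each array had a median SD of 0.18 and 0.19 between their copies. Of these ratios only that of Eig71Eh lay farther from 0 than this.

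Eig71Ef was lower in the ablated larvae on both arrays, by nearly the same amount after normalization but not before it. Its net signals were 123 in ablated and 309 in control larvae on replicate 1, and 26 and 202 on replicate 2. The control larvae passed background on both arrays by a narrow margin, at 2.07 and 2.24 background SDs, and the ablated larvae on neither, at 1.40 and 0.47. After normalization the log2 ratios were -0.87 and -0.88 (-0.88 ± 0.0098). The ablated to control ratios of net signal were 0.40 and 0.13. The authors' deposited log2 ratios, -1.32 and -2.96, follow the same net signals, are not centred and are no separate measurement. The small SD therefore depends on the processing. With the ablated signal raised to the lowest signal above background where it lay under that, the controls exceeded the ablated larvae 1.78-fold for Eig71Ef. The measured fold was 1.84. The unadjusted p was 0.0236 in limma and the adjusted p 0.996, so no call was made; 1.88% of all tested genes were lower in ablated larvae at an unadjusted p under 0.05. The bound takes the floor over all probes and left the ablated value of replicate 1 unchanged, so it is lenient and no minimum. Eig71Ef passed the filter through the control channel alone, so its fold and p draw on the group that let it pass. With a margin of 3 background SDs, chosen after seeing the data, Eig71Ef was above background in 0 channels.

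Eig71Eg, which follows Eig71Ef in the cluster, differed most between the arrays. Its net signals were 250 in ablated and 354 in control larvae on replicate 1, at 1.46 and 1.97 background SDs, and 1042 and 190 on replicate 2, at 8.68 and 1.56. Only the ablated channel of replicate 2 was above background. The log2 ratios of Eig71Eg were -0.62 and 1.58 (0.48 ± 1.56), a gap of 2.20 against a median gap of 0.40 over all tested genes. The measured fold of 1.40 in favour of the ablated larvae is no minimum, because its bound equals it. On both arrays the Cy3 channel was the brighter one, with control RNA on replicate 1 and ablated RNA on replicate 2.

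**Figure D2:**
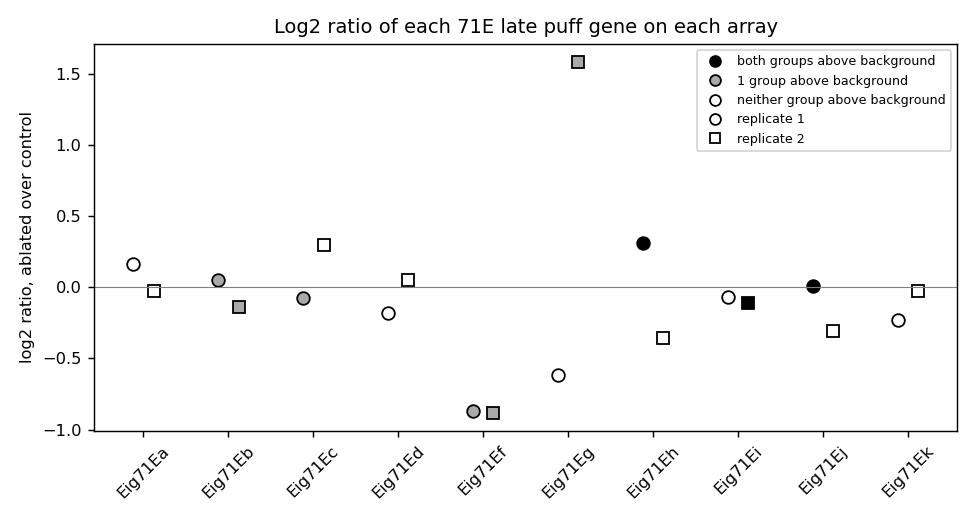
Log2 ratio of ablated over control larvae for each late puff gene on replicate 1 (circles) and replicate 2 (squares); black symbols had both groups above background, grey symbols 1 group and white symbols neither. The pair for Eig71Ef stands at -0.87 and -0.88, that for Eig71Eg is split between -0.62 and 1.58, and 3 symbols are black.

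Eig71Eb and Eig71Ec were measured in the ablated larvae only. For Eig71Eb the net signals were 634 in ablated and 392 in control larvae on replicate 1 and 347 and 369 on replicate 2. The control channel missed the margin by little, at 1.88 and 1.96 background SDs, against 3.56 and 2.18 in the ablated channel. Detection in 1 group alone is therefore no difference between the groups here, and the log2 ratios of Eig71Eb were 0.0498 and -0.14 (-0.0454 ± 0.13).

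For Eig71Ec the net signals were 490 in ablated and 350 in control larvae on replicate 1, and 10 and -50 on replicate 2. Only the ablated channel of replicate 1 was above background, at 4.50 background SDs against 1.01 in the control. Its log2 ratios were -0.0746 on replicate 1 and 0.30 on replicate 2 (0.11 ± 0.26). No fold is given for either gene, since the bound was under 1.

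The genes under background throughout gave ratios near 0 that carry no measurement. Eig71Ea came nearest to the margin, with 1.79 background SDs in the ablated channel of replicate 1 and between 0.33 and 0.85 in the other channels. Eig71Ed and Eig71Ek stayed under 1 background SD in each of their 4 channel values. The pairs of log2 ratios were 0.16 and -0.0273 for Eig71Ea, -0.18 and 0.0513 for Eig71Ed, and -0.23 and -0.0240 for Eig71Ek. Eig71Ea and Eig71Ek stand at the ends of the cluster and Eig71Ed beside Eig71Ee.

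Over the cluster, the ratios had no common direction. Of the 7 genes that passed the filter, 2 (Eig71Ef and Eig71Ei) had a log2 ratio below 0 on both arrays, 0 had one above 0 on both, and 5 had opposite signs. Among all 5960 tested genes, 22.4% were lower on both arrays, 24.5% higher on both and 53.1% opposite. Without the filter 3 of 10 late puff genes were lower on both, with Eig71Ek added, and 0 were higher, against 23.2% and 23.1% of 13188 genes. The median log2 ratio of the 7 was -0.0454, beside 0.00903 for all tested genes; it was -0.0684 on replicate 1 and -0.14 on replicate 2. These counts describe the genes that passed and support no statement about the cluster, since Eig71Ef passed through the control channel alone and Eig71Eb, Eig71Ec and Eig71Eg through the ablated channel alone. Limma called 0 of the 7, with adjusted p of 0.996 for each and 1 gene (Eig71Ef) at an unadjusted p under 0.05; for a single gene, the smallest two-sided exact permutation p that 2 arrays allow is 0.5.

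**Figure D3:**
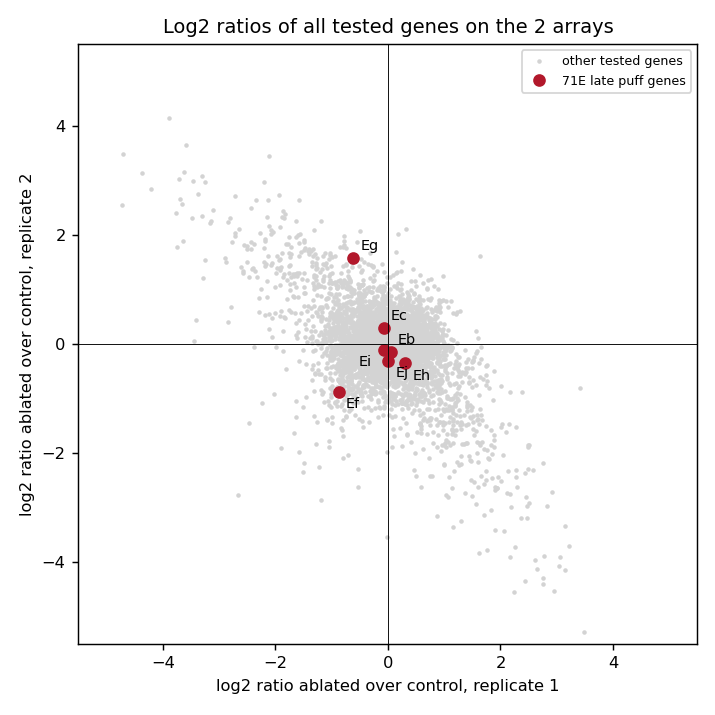
Log2 ratio of ablated over control larvae on replicate 1 (horizontal) and replicate 2 (vertical) for 5960 tested genes (grey) and the 7 tested late puff genes (red, marked by the last letters of the name). The grey cloud slopes downwards (r = -0.53); Eig71Ef lies below 0 on both axes, Eig71Eg at the upper left, and the other late puff genes near the centre.

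Read with the sign of replicate 2 turned, the 2 genes farthest from 0 read differently. Eig71Ef then averaged 0.00693 and Eig71Eg -1.10, with limma adjusted p of 1.000 and 0.0162. Eig71Eg was the 1 late puff gene called in that reading, among 513 of 5960 genes (8.61%). The reading follows the negative correlation of these same ratios, so genes that follow the dye agree in it by construction. Eig71Eg was above background only in the ablated channel of replicate 2, and in neither group on replicate 1. The call is therefore no support for a difference. The count higher on both arrays rose from 0 to 3 (Eig71Eb, Eig71Eh and Eig71Ej) and that lower on both stayed at 2, then Eig71Ec and Eig71Eg, beside 27% higher and 26.1% lower among all tested genes.

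The glue gene Eig71Ee lies in the middle of the cluster and encodes a salivary secretion protein. Its log2 ratios were -0.0758 and -1.18 (-0.63 ± 0.78), and each array had 1 group above background, the ablated larvae on the first and the controls on the other. The mean was 0.55 if replicate 2 is turned. Of its neighbours, Eig71Ef was above background in the control larvae alone and Eig71Ed in neither group.

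The pathway that drives the late puffs was read from lists of its other genes, chosen with earlier results of these arrays known. None of their genes passed limma in either direction as labelled. Counts of genes lower and higher on both arrays stand beside 22.4% and 24.5% of all tested genes, and with the sign of replicate 2 turned beside 26.1% and 27%. Of the hormone receptor and early regulators, 11 of 15 were tested, with 4 lower and 1 higher on both arrays and a median of -0.19 (3 and 3 with the sign turned). The early regulator br read 0.60 on replicate 1 and -1.05 on replicate 2, Eip75B 0.86 and -0.68, and Eip74EF -0.75 and -0.52, each above background in all 4 channel values. Further probes of br averaged from -0.45 to 0.13, but none had both groups above background on the same array, so their spread is no measured disagreement. A further probe of Eip74EF was not above background. Thus br and Eip75B differed in sign between the arrays and Eip74EF did not.

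Of the salivary glue genes, which are switched on earlier than the late puffs and off as these appear, 9 of 12 were tested, 7 lower and 0 higher on both arrays with a median of -1.44. With the sign of replicate 2 turned the glue counts were 1 and 1 and the median 0.34. Sgs7 read -1.19 and -2.86 and Sgs5 -1.57 and -1.98, with the ablated larvae not above background on replicate 2, so the second ratio of each is uncertain. The glue gene ng2 read 0.14 and -0.30, with the controls not above background on replicate 1. Among other late larval genes of the ecdysone response, 8 of 16 were tested, 4 lower and 1 higher on both arrays (median 0.0526), or 2 and 1 with the sign turned. The storage protein genes Lsp1beta and Lsp1alpha read -0.34 and 0.56, and -0.67 and -0.29, and Ldh 0.47 and -0.15, each above background in all 4 channel values. Of 3 prepupal cuticle genes only Edg84A was tested, at -0.0826 and 0.41, and above background in 1 channel value. Of the ecdysteroid synthesis genes 3 of 12 were tested, 1 lower and 0 higher on both arrays (0 and 2 with the sign turned), and in neither group were they above background on replicate 2. On replicate 1 mld read 0.46 with both groups above background, ouib 0.0452 with the ablated larvae alone above it and shd -1.81 with the controls alone above it. A further probe of mld, above background in no channel, read -0.35 on replicate 1 and -0.12 on replicate 2.

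Markers of the salivary gland, the tissue of the puff, were read from a list of 5. The transcription factor genes fkh and CrebA, which other tissues use too, were above background in all 4 channel values, and sage in 1. The secretory enzyme genes PH4alphaSG1 and PH4alphaSG2 were above background in none. The log2 ratios of fkh were -0.42 on replicate 1 and 0.87 on replicate 2, and those of CrebA -0.57 and 0.62. Of 3 tested markers 1 was lower and 0 were higher on both arrays (2 and 0 with the sign turned). The part of gland content in the late puff values was not tested.

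Likeness of pattern was measured for Eig71Ej, the late puff gene with the highest mean intensity, as the Euclidean distance over its 4 normalized log2 channel values after each gene's mean was subtracted. The nearest of 5953 other genes were CG31548 (0.0645), galla-1 (0.0852), Ufd1 (0.107), pasha (0.126) and DPCoAC (0.149), against a median distance of 1.91. Among late puff genes Eig71Eh was nearest at 0.28, with 82 other genes nearer, and Eig71Eg farthest at 3.59. The intensities had been brought to the same distribution on both arrays. Eig71Ej was above background in neither group on replicate 2, so the distances are a description only.

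**Figure D4:**
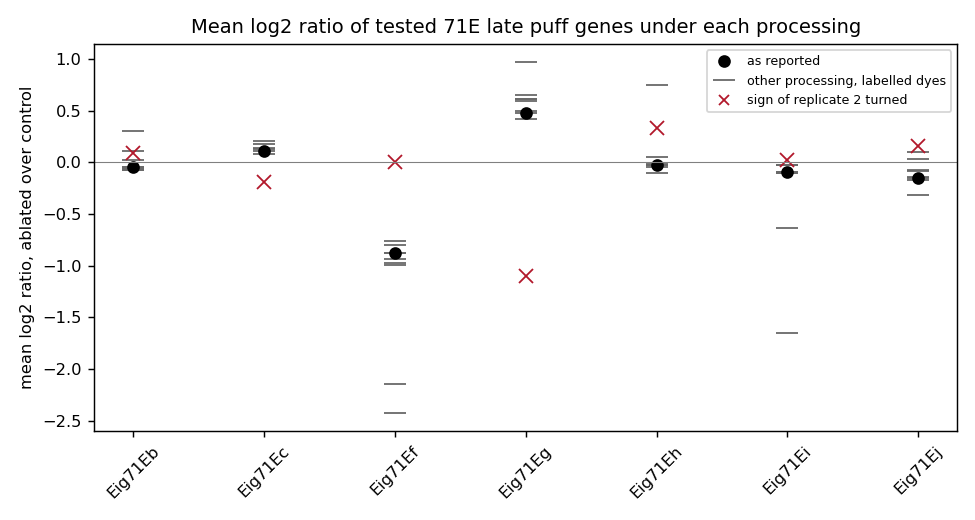
Mean log2 ratio of ablated over control larvae for the 7 tested late puff genes as reported (black circles), under the other processing choices with the labelled dyes (grey bars) and with the sign of replicate 2 turned (red crosses). Eig71Ef stays below 0 under each choice with the labelled dyes, from -2.43 to -0.76, and reaches 0.00693 with the sign turned.

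Under every processing choice that kept both arrays and the labelled dyes Eig71Ef was lower in the ablated larvae, from -0.76 with print-tip loess to -2.43 with plain background subtraction, and Eig71Ei was lower where tested, from -0.0233 with the mean of spot pixels to -1.65 in the authors' deposited table. The ablated larvae were above background for Eig71Ef on neither array, so the size of its ratios is not measured. The -1.65 of Eig71Ei averages -3.19 on replicate 1, where neither group was above background, and -0.11 on replicate 2. The steady sign of these genes is thus no measured direction either. Eig71Eg and Eig71Ec had a mean above 0 where tested, from 0.42 to 0.98 and from 0.0855 to 0.21. As reported, both read below 0 on replicate 1 (-0.62 and -0.0746), so these means come from replicate 2. There Eig71Ec was above background in neither group and Eig71Eg in the ablated larvae alone, so the steady sign is no measured direction. Eig71Eb, Eig71Eh and Eig71Ej changed sign between choices. The lowest adjusted p of any of them under these choices was 0.996.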

How the data were processed

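GenePix Pro 7.1.25 quantified the scans, per the file headers. The values deposited are spot and local background intensity at 635 nm (Cy5) and 532 nm (Cy3) and the percent of saturated pixels, which was 0 for each late puff spot. The authors also deposited a table of log2 ratios, which against the scanner values runs as 635 over 532 nm on replicate 1 (r = 0.999) and the other way on replicate 2 (r = -0.999). It is thus ablated over control on both, and not centred (medians 0.487 and -0.115); what else was done to it is not stated in the labels or headers.

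Probes were named through the reference gene table, 12688 of 14593 by locus tag and 1218 by a synonym held by 1 gene; 687 kept the file's name. In limma 3.58.1 under R 4.3.3, normexp (offset 50) corrected the background and loess normalized each array, ignoring control spots. For the channel values behind the fold bounds and the likeness, intensities were then brought to the same distribution on both arrays. Repeat spots were averaged, and the probe of highest mean intensity stood for a gene. Genes above background in no channel were left out, and the 2 ratios were tested two-sided against 0 with lmFit and eBayes and Benjamini-Hochberg adjustment over all 5960 genes. The fit was also run on simulated data with the 2 arrays drawn independently. The real ratios ran against each other, so that run does not show how the fit performs on these arrays. The number of arrays limits the precision.

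Members, lists and tests were chosen with earlier results of these data known. The text names all 10 members, and in each list the 3 tested genes above background in most channels, ties by intensity. Alternatives were other background corrections, other normalizations, other filters on dim probes, the authors' ratios, the sign of replicate 2 turned and each array left out; the mean of spot pixels and other margins over background were added after seeing the data.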

Additional observations from a re-analysis of the deposited data

How the results depend on the processing

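Under the alternatives with the labelled dyes 0 genes and 0 late puff genes were called; with the sign of replicate 2 turned 513 genes and 1 late puff gene were. The count of late puff genes lower on both arrays (2) fell to 1 without background correction, and to 1 where a probe had to be above background on each array, which left 2 members to test; it was 3 with the mean of spot pixels. The count higher on both (0) was 1 with print-tip loess, 1 with median centring, 1 in the authors' deposited table and 3 with the sign turned. The median log2 ratio (-0.0454) was -0.32 with plain subtraction, which left 5 members, -0.10 with a normexp offset of 16, 0.0558 with median centring, -0.46 with the filter on each array, 0.20 in the authors' table and 0.0200 with the sign turned. Median centring and the authors' table moved the median of all genes to 0.14 and 0.31. With 1 array left out there is no test; then 4 to 5 members were lower and 2 to 3 higher on the remaining array, with medians of -0.14 to -0.0684. Without replicate 2 the ratios of Eig71Eb (0.0498), Eig71Ec (-0.0746), Eig71Eg (-0.62), Eig71Eh (0.31) and Eig71Ej (0.00518) have the opposite sign to the mean of both arrays. With both arrays, mean ratios changed sign for Eig71Eb (0.0222 without background correction, 0.11 with median centring, 0.30 in the authors' table), Eig71Eh (0.0558 and 0.745 in the last 2) and Eig71Ej (0.0325 and 0.105). With the sign turned all 7 did: Eig71Eb 0.0952, Eig71Ec -0.19, Eig71Ef 0.00693, Eig71Eg -1.10, Eig71Eh 0.33, Eig71Ei 0.0200 and Eig71Ej 0.16. The cause was not tested. At 3 background SDs 4 ablated and 2 control late puff genes were above background on replicate 1 and 2 and 0 on replicate 2; at 1 SD the numbers were 7, 6, 3 and 4. Each ratio sets ablated against control RNA on 1 array, so the test of the 2 ratios against 0 was already paired by array. The labels give 1 group of 2 arrays, and no other pairing was used.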
